A study of Mus musculus with 8 samples.

Results

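B cell nuclei of mouse gastrocnemius, a calf muscle, were picked from the 4 single-nucleus RNA libraries made with 10x Genomics droplets. A nucleus was a member when its raw UMIs (tags that count each captured RNA molecule once) of Pax5, Ms4a1, Bank1, Cd79a and Cd79b summed to at least 3, with at least 2 of the 5 genes detected, and when Csf1r, Themis, Pecam1 and Pdgfra were at 0. These last 4 genes mark macrophages, T cells, endothelium and fibro-adipogenic progenitors. Of 47059 retained nuclei, 63 were members, a share of 0.134% (95% exact binomial interval 0.103 to 0.171). Intervals given here cover counting error only. The 5 genes chose the nuclei, so their levels are a description.

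The mice were wild type, of the C57BL/6 strain. Young mice were 3 months old and Old mice 20 months old. Running mice were 11 months old when 2 months of treadmill training began, and Sedentary mice were their untrained controls. Each group had 1 10x library of frozen muscle, so no difference between groups was tested, and age or training cannot be told apart from the library. How many animals a library held is not given in the sources used here.

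B cells are the lymphocytes that carry an antibody as their antigen receptor. The transcription factors Ebf1 and Pax5 set up the lineage, the Cd79a and Cd79b chains pass the receptor's signal inward through the kinases Lyn and Syk, and MHC class II molecules present captured antigen to T cells. In muscle they are a minor immune population beside macrophages, and the plasma cells that arise from them secrete antibody and switch off much of the B cell programme.

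The libraries held between 10587 and 12991 retained nuclei and between 23390969 UMIs in Sedentary and 44454427 in Running. The median depth of a nucleus lay between 1664 UMIs (Sedentary) and 3001 UMIs (Young). The median member was shallower, with 2039 UMIs in Young, 1506 in Old, 1679 in Running and 1159 in Sedentary. Between 30 and 46 barcodes were shared by any pair of libraries, and none of them belonged to a member.

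The name of the population was checked against 12 B cell markers that the rule did not use, among them Cd22, Blk, Ebf1, Fcmr, Ralgps2, Bach2, Pou2af1, Cd37, Fcer2a, Fcrla and Cd72. At least 2 of them were detected in 54 of the 63 members, against 9.02% of nuclei that met none of the immune rules and had fewer than 3 of 4 endothelial genes. The markers were less specific against other immune nuclei, with at least 2 in 61 of 161 T cell nuclei (37.9%) and 267 of 1234 macrophage nuclei (21.6%). These nuclei met the T cell or macrophage rule described below, with no gene required to be absent, and no other immune rule. By library, 14 of 15 members in Old and 33 of 34 in Young had at least 2, against 5 of 9 in Running and 2 of 5 in Sedentary. Among the T cell nuclei it was 34 of 86 in Old and 12 of 36 in Young. It was 5 of 20 in Running and 10 of 19 in Sedentary. The markers therefore bore out the name in Old and Young, and for only part of the members in Running and Sedentary. In Sedentary, the share of members with at least 2 markers was no higher than that of T cell nuclei.

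The weaker members could be followed nucleus by nucleus. In Sedentary, 3 of the 5 members had none of the 12 markers and only 3 to 4 rule gene UMIs. In Running, 2 of the 9 had none, and 1 of these held 42 UMIs of Rbpj, 13 of Mrc1 and 8 of F13a1, which are macrophage markers. Another 3 Running members and 4 Young members held at least 50 UMIs of Ttn, the giant sarcomere protein of muscle fibres, up to 723 in a single Running nucleus and 224 in a single Young nucleus. In Old, the highest Ttn count in a member was 5.

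**Figure D1:**
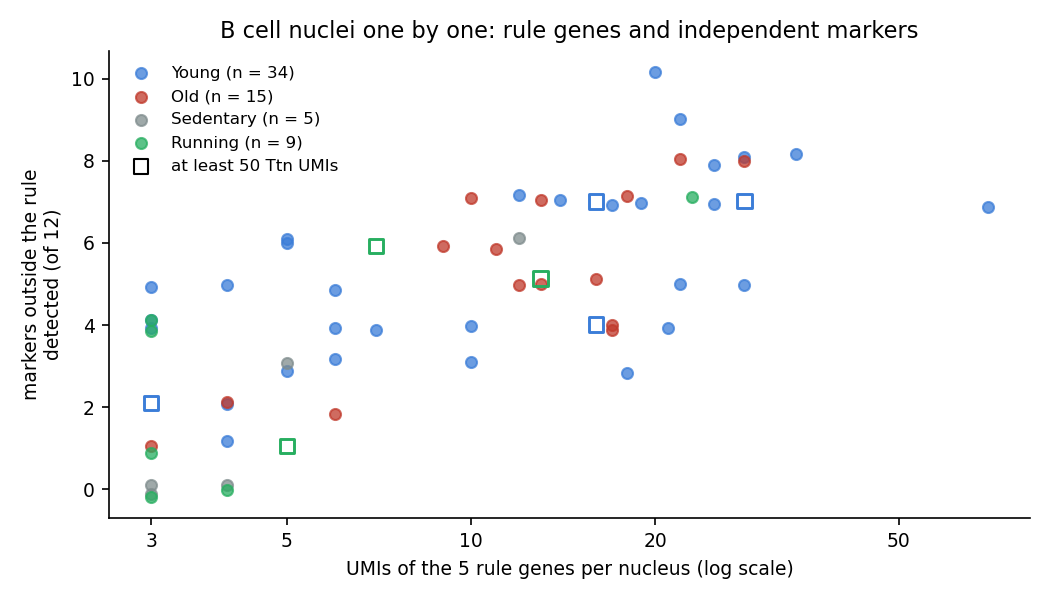
Each point is 1 B cell nucleus. The horizontal axis gives its UMIs of the 5 rule genes on a log scale, and the vertical axis how many of the 12 markers outside the rule were detected, with points spread slightly up and down so that they can be seen. Old and Young nuclei lie mostly at 2 or more markers, and the 5 nuclei with no marker are 2 from Running and 3 from Sedentary. Open squares mark the 7 nuclei with at least 50 Ttn UMIs.

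At the edge of the rule, 11 members held exactly 3 UMIs, and 6 of them had at least 2 outside markers. Of the 52 members with 4 or more UMIs, 48 did. Just outside the rule, 25 nuclei held exactly 2 UMIs over 2 genes, and 9 of them had at least 2 outside markers. Another 100 nuclei held 3 or more UMIs of a single rule gene, of which 26 had at least 2. Bank1, an adaptor of B cell receptor signalling, has a gene body of 273 kb on the minus strand of chromosome 3 (136053363 to 136326066, build GRCm38) and gave 54.3% of the rule gene UMIs in members. It was also detected in between 42.3% and 61.8% of the nuclei that met the macrophage rule described below with no gene required at 0.

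A further 78 nuclei met the UMI rule but were left out because at least 1 of the 4 genes was above 0, and 74 of them had at least 2 outside markers. With no gene required at 0 the population was 141 nuclei. Pecam1, an adhesion molecule of endothelium and of many leukocytes, removed most of them. It was detected in 35 of 70 such nuclei in Young, 22 of 45 in Old, 5 of 14 in Running and 2 of 12 in Sedentary, or 45.4% in all (37.0 to 54.0). The same share, again with no gene required at 0, was 34.2% of 161 T cell nuclei (26.9 to 42.0). It was 4.54% of 1234 macrophage nuclei (3.45 to 5.85). These T cell and macrophage nuclei met no other immune rule. In nuclei of no immune rule with fewer than 3 of 4 endothelial genes the share was 3.66% (3.49 to 3.84).

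Other endothelial genes were not more frequent in the B cell nuclei that had Pecam1. Of the 64 B cell nuclei with Pecam1, 6 held any UMI of Ptprb, Cdh5, Flt1 or Kdr (9.38%, 3.52 to 19.3), against 11 of the 77 without it (14.3%, 7.35 to 24.1). At least 2 outside B cell markers were found in 62 of the 64 with Pecam1 and in 66 of the 77 without. The gene was thus at 0 in the 63 members by the rule, and detected in 64 B cell nuclei that the rule left out. Counts for the 141 nuclei are therefore given below beside those for the 63 where a comparison rests on them.

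Members were found in all 4 libraries, and Young held the most. The share was 0.288% in Young (34 nuclei, 0.200 to 0.403) and 0.128% in Old (15 nuclei, 0.0719 to 0.212). It was 0.0693% in Running (9 nuclei, 0.0317 to 0.131) and 0.0472% in Sedentary (5 nuclei, 0.0153 to 0.110). The intervals of Young and Old overlapped slightly, and those of Running and Sedentary almost wholly.

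The share in Old was 0.445 times that in Young (0.225 to 0.840), and 0.649 times with no gene required at 0 (0.436 to 0.957). Other immune nuclei of the same libraries went the other way. T cell nuclei, chosen in the same manner by T cell genes such as Themis, Skap1, Cd3e and Cd3g, were 2.92 times as frequent in Old (1.71 to 5.21), with 55 nuclei in Old and 19 in Young. Macrophage nuclei, chosen by Csf1r, Mrc1, Adgre1, F13a1 and Tbxas1, were 1.81 times as frequent (1.4 to 2.35), with 172 and 96 nuclei. The Running share was 1.47 times the Sedentary share (0.441 to 5.57), and 0.951 times (0.408 to 2.25) with no gene required at 0. These ratios compare 1 library with 1 other, and whether the libraries differ beyond the spread between animals was not tested.

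**Figure D2:**
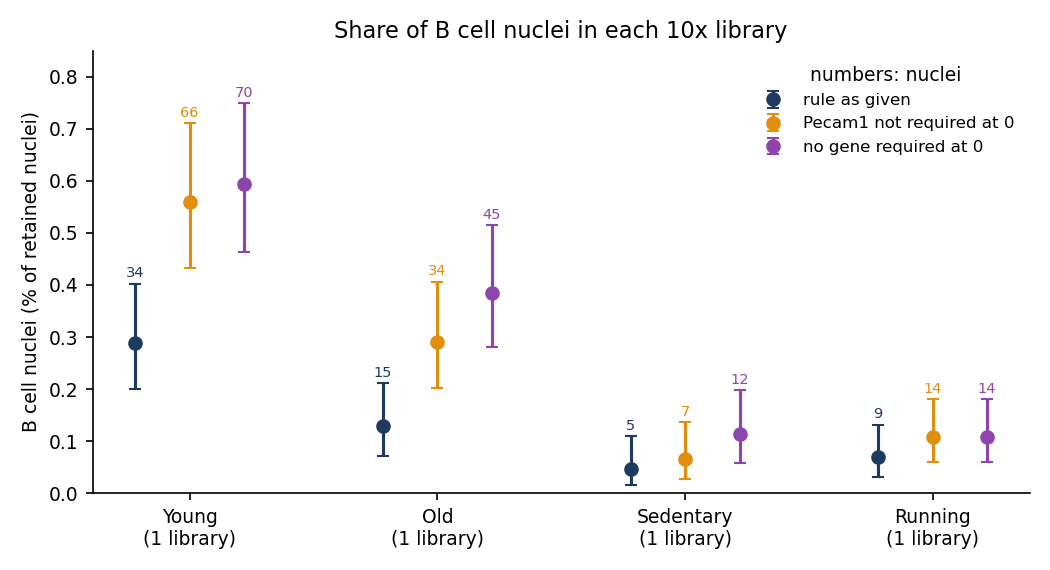
The share of B cell nuclei among retained nuclei is plotted in percent for the 4 10x libraries, 1 per group, under the rule as given and with Pecam1 or all 4 genes no longer required at 0. Points are shares, bars are 95% exact binomial intervals and numbers count nuclei. Young lies above Old, and Old above Sedentary and Running, under all 3 forms of the rule.

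Surface genes of B cells outside the rule were each found in a minority of the members. Cd22, an inhibitory co-receptor, was detected in 28.6% of the 63 members, 1.0% of 100 T cell nuclei and 0.655% of 458 macrophage nuclei. The low-affinity IgE receptor Fcer2a was found in 16 members and the IgM receptor Fcmr in 11, and neither was found in a T cell or macrophage nucleus, which with 100 and 458 nuclei allows shares of up to 3.0% and 0.655%.

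The 20 genes of B cell receptor signalling ranged from 3.17% of members for Vpreb3 to 77.8% for Prkcb, with a median of 27.8%. Lyn was found in 73.0% of members, Syk in 63.5% and the adaptor Blnk in 50.8%. Lyn and Syk are shared with macrophages, where 52.2% and 32.8% of nuclei had a UMI, whereas T cell nuclei had them in 14% and 2.0%. Blk, a Src family kinase of B cells, was found in 33.3% of members and in 1.09% of macrophage nuclei.

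The 20 lineage transcription factors ranged from 3.17% of members for Spi1 to 92.1% for Foxp1, with a median of 51.6%. Ebf1 was found in 84.1% of members with 740 UMIs, Aff3 in 88.9% with 337 and Bach2, a repressor that holds off the plasma cell fate, in 71.4% with 334. Bcl11a was found in 60.3% and the Ikaros family member Ikzf3 in 58.7%. Some of these are not B cell genes alone in this tissue. Ebf1 was also found in 39.0% of the nuclei of no immune rule, and Ikzf3 in 47.0% of T cell nuclei, while Bcl11a was found in 3.0% of T cell and 6.77% of macrophage nuclei.

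**Figure D3:**
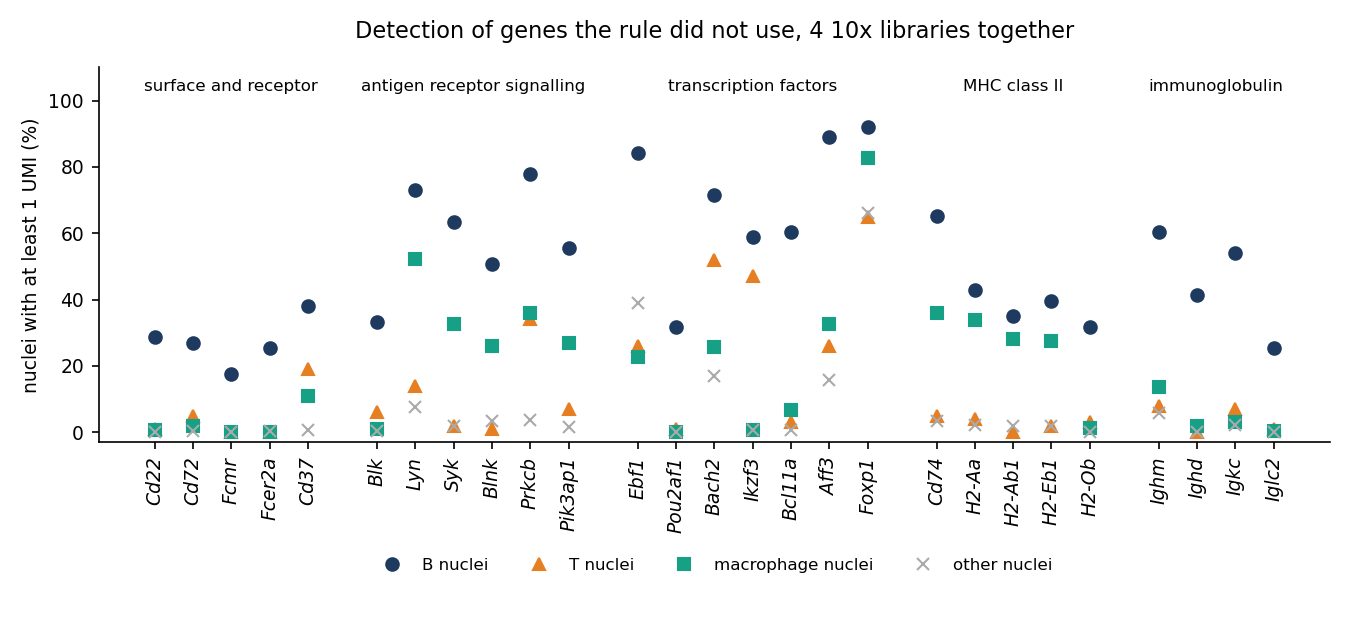
The percentage of nuclei with at least 1 UMI is plotted for genes that the rule did not use, in 63 B cell, 100 T cell, 458 macrophage and 46338 other nuclei of the 4 10x libraries together. Depths differ between the classes, so the points describe detection. B cell nuclei lie highest for every gene shown, with narrow gaps to macrophages at H2-Ab1 (34.9% against 27.9%), H2-Aa and Foxp1.

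The comparison with T cell and macrophage nuclei of the same libraries needed at least 10 nuclei of both classes in 3 libraries, and the 63 members gave that in only 2. It was run instead on the B cell nuclei with no gene required at 0, in all 4 libraries, a choice made after the counts of nuclei were seen. T cell nuclei kept Csf1r, Bank1, Pecam1 and Pdgfra at 0, and macrophage nuclei Themis, Bank1, Pecam1 and Pdgfra, so the classes were not chosen alike. Pecam1 was detected in 64 of the 141 B cell nuclei, Pdgfra in 9 and Csf1r in 7. Nuclei that also met the T cell or macrophage rule were left out, UMIs were summed per library and class, and genes used by any of the 3 rules are not reported as findings. Against T cell nuclei, 43 of 844 genes passed at an adjusted p under 0.05 (5.09%; edgeR quasi-likelihood test with the library as a block), 26 higher in B cell nuclei (3.08%) and 17 lower (2.01%). The numbers include 2 rule genes in each direction. Without the block the count was 19, without Old it was 17, and without Sedentary it was 206.

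Among the genes higher in B than in T cell nuclei were an antibody gene, kinases of the antigen receptor and genes of antigen presentation. Ighm, the constant region of IgM, had 1108, 211, 14 and 9 UMIs in B cell nuclei of Old, Young, Running and Sedentary against 6, 1, 2 and 0 in T cell nuclei (log2 difference 6.54 ± 0.85 SE, edgeR adjusted p = 0.00087). The 15 Old members under the rule as given held 57 of the 1108 Ighm UMIs in Old. Syk had 101, 161, 18 and 16 against 0, 2, 0 and 0 (6.30 ± 0.64, edgeR adjusted p = 0.00026). Against counts this low a fitted difference depends on the prior count, and the UMIs are the firmer values. Both genes were near 0 in T cell nuclei and passed the filter on low counts through the B cell nuclei. They had to differ, so their adjusted p describes them and is no separate support.

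Cd74, the chaperone of MHC class II, had 202, 162, 26 and 29 UMIs against 3, 1, 0 and 1 in T cell nuclei, and H2-Aa, an MHC class II chain, had 117, 51, 11 and 8 against 2, 0, 0 and 2. Being higher in every library was a condition for naming the largest differences, these 2 among them, and is no separate support. Both genes too passed the filter through the B cell nuclei. Lyn was higher by 3.78 ± 0.46 and Aff3 by 2.69 ± 0.46 on the log2 scale. The other genes named by the rule in this direction were Cacna1e, March1, Fchsd2 and Sox5, with differences between 2.53 and 3.65. The calls of Cacna1e, Sox5 and March1 were lost in 5, 3 and 2 alternative fits, and that of Fchsd2 in 0. In Sedentary, Cacna1e had 13 UMIs in B cell nuclei and 11 in T cell nuclei.

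The named genes lower in B cell nuclei included several known from T cells. Tox, a factor of T cell development and exhaustion, was lower by −3.80 ± 0.62, the kinase Prkcq by −2.75 ± 0.36 and the Src kinase Fyn by −2.51 ± 0.34. Ppm1h, Tasp1, Cd44, Pitpnc1, Atp2b1, Ikzf2 and Grap2 followed, between −3.11 and −1.43. Being lower in each of the 4 libraries was a condition for naming these 10 genes and is no separate support. Tox had 10, 8, 0 and 5 UMIs in B cell nuclei of Old, Young, Running and Sedentary. Genes this low in B cell nuclei passed the filter through the T cell nuclei and had to differ. The calls of Ikzf2, Grap2 and Atp2b1 were lost in 6, 4 and 3 alternative fits, and those of Tox, Prkcq, Fyn and Cd44 in 0.

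Among the gene lists, 4 of the 20 genes of B cell receptor signalling passed the filter on low counts. Lyn, Prkcb and Syk were higher and Malt1 did not pass (median log2 difference of the 4 genes 2.90, against 0.01 over all genes tested). Of 9 lineage transcription factors tested, Aff3 and Ebf1 were higher and 7 did not pass, with a median of 0.99. Ebf1 was higher in 3 of 4 libraries, with 36 UMIs in B cell and 43 in T cell nuclei of Sedentary. Its call was lost in 4 alternatives, and that of Aff3 in 0. Over all 844 genes tested, 3.08% were higher in B cell nuclei. A gene that passed the filter only through its level in B cell nuclei had to differ, so these counts are a description of the tested genes. The 6 myofibre genes tested did not pass, with a median of −0.30. Of the fibro-adipogenic list 1 gene was tested, Lama2, a laminin chain. It was higher by 1.42 ± 0.34 (edgeR adjusted p = 0.041), and this call was lost in 7 of 8 alternatives. Pdgfra, of the same list, was at 0 in the T cell nuclei by their rule but not in the B cell nuclei.

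Against macrophage nuclei the summed counts were larger and 367 of 3560 genes passed (10.3%; edgeR, library as a block), 193 higher in B cell nuclei (5.42%) and 174 lower (4.89%), of which 5 in each direction were rule genes. Without Old the count was 231, and without Young it was 115. With Pax5 in place of Bank1 as the gene required at 0 in macrophages it was 808, with 448 macrophage nuclei in Old in place of 172. The genes named higher were Ikzf3, Igkc, Gm30211, Gimap4, Tmem163, Cd22, Btla, Ighd, H2-Ob and Kynu, with log2 differences between 5.0 and 7.74.

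Ikzf3 had 62, 312, 12 and 6 UMIs in B cell nuclei of Old, Young, Running and Sedentary against 1, 0, 0 and 2 in macrophage nuclei. Btla, an inhibitory receptor of lymphocytes, had 107, 195, 19 and 3 against 12, 2, 2 and 0. H2-Ob, a chain of the HLA-DO homologue that restrains peptide loading in B cells, had 24, 38, 9 and 5 against 5, 0, 2 and 0 (5.16 ± 0.56, edgeR adjusted p = 0.00014). Being higher in each library was a condition for naming these 3 genes and is no separate support. The macrophage nuclei held more UMIs in all. With so few of their own UMIs there, the 3 genes passed the filter on low counts through the B cell nuclei and had to differ.

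Genes of MHC class II presentation were also compared between B cell and macrophage nuclei. Of 7 genes of that list tested, H2-Ob was higher, the costimulatory ligand Cd86 was lower and 5 did not pass (median −0.27, against 0.00 over all genes tested). Only 10.3% of all 3560 genes tested were called, so the 5 that did not pass are no result about the list. Cd74 differed by 0.58 ± 0.41 (edgeR adjusted p = 0.47), H2-Aa by −0.31 ± 0.39 (0.71) and H2-Eb1 by −0.27 ± 0.41 (0.78). The 7 tested markers outside the rule were higher, but Cd22, Blk and other markers near 0 in macrophages passed the filter through the B cell nuclei and had to be. Of 15 transcription factors 9 were higher and 1, Spi1, was lower. Over all 3560 genes tested, 5.42% were higher and 4.89% lower. Ikzf3 and other factors near 0 in macrophages passed the filter through the B cell nuclei and had to differ. The call of Irf8, 1 of the 9, was lost in 7 alternative fits and that of Spi1 in 3. Spi1 encodes PU.1, which macrophages need at a high level.

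Genes lower in B cell than in macrophage nuclei included receptors and adhesion molecules of myeloid cells. Itgam, the CD11b integrin chain, was lower by −3.61 ± 0.53, and Cd200r1 by −3.41 ± 0.55. Colq, Cd226, Mcub, Cass4, Myh7, Gfra2, Lair1 and P3h2 were the others named, between −5.76 and −3.31. Itgam had 2, 2, 1 and 0 UMIs in B cell nuclei of Old, Young, Running and Sedentary, and Colq 0, 0, 1 and 0. Genes this near 0 in B cell nuclei passed the filter on low counts through the macrophage nuclei and had to differ. Their differences are a description. Myh7 is a myosin of slow fibres and not a macrophage gene.

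Antibody chains were read from the constant region genes of the 63 members. Ighm or Ighd, the IgM and IgD classes made before switching, was detected in 44 members (69.8%, 57.0 to 80.8), with Ighm in 38, Ighd in 26 and both in 20. By library it was 26 of 34 in Young, 13 of 15 in Old, 4 of 9 in Running and 1 of 5 in Sedentary. In other nuclei Ighm or Ighd was found in 6.01%, and Ighd, with or without Ighm, in 0.181%, against 41.3% of members.

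A switched class was found in 1 member, in Old, with 2 UMIs of Ighg2b and 4 of Ighg3 and none of Ighm or Ighd (1.59%, 0.0402 to 8.53). Ighm was also present in nuclei that are not B cells, most in Running, where 1264 of 12844 other nuclei had a UMI, so a single Ighm UMI does not mark a B cell there. When every member was thinned to 500 UMIs, 31 of the 63 still had Ighm or Ighd, against 1.83% of other nuclei thinned alike.

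Light chain genes were detected in 42 members. Igkc, the kappa constant region, was the only light chain in 19 of them (45.2%, 29.8 to 61.3), lambda genes were alone in 8, and both were found in 15. Of the lambda genes, Iglc2 was found in 16 members, Iglc1 in 8 and Iglc3 in 6. In the 15 nuclei with both, Igkc gave 53 UMIs and lambda genes 27, and 9 of the 15 held only 1 lambda UMI. With 2 UMIs required for a detection, 25 members had a light chain, 15 of them Igkc alone, 5 lambda alone and 5 both.

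Antibody RNA was also detected in nuclei that met no immune rule, at shares that differed by library. Igkc was found in 7.64% of 11399 other nuclei in Old, 0.992% of 10486 in Sedentary, 0.293% of 11609 in Young and 0.0856% of 12844 in Running. Among members it was found in 7 of 15 in Old (46.7%, 21.3 to 73.4) and 22 of 34 in Young (64.7%, 46.5 to 80.3), and these intervals overlapped. The part of this signal in the light chain counts was not tested.

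**Figure D4:**
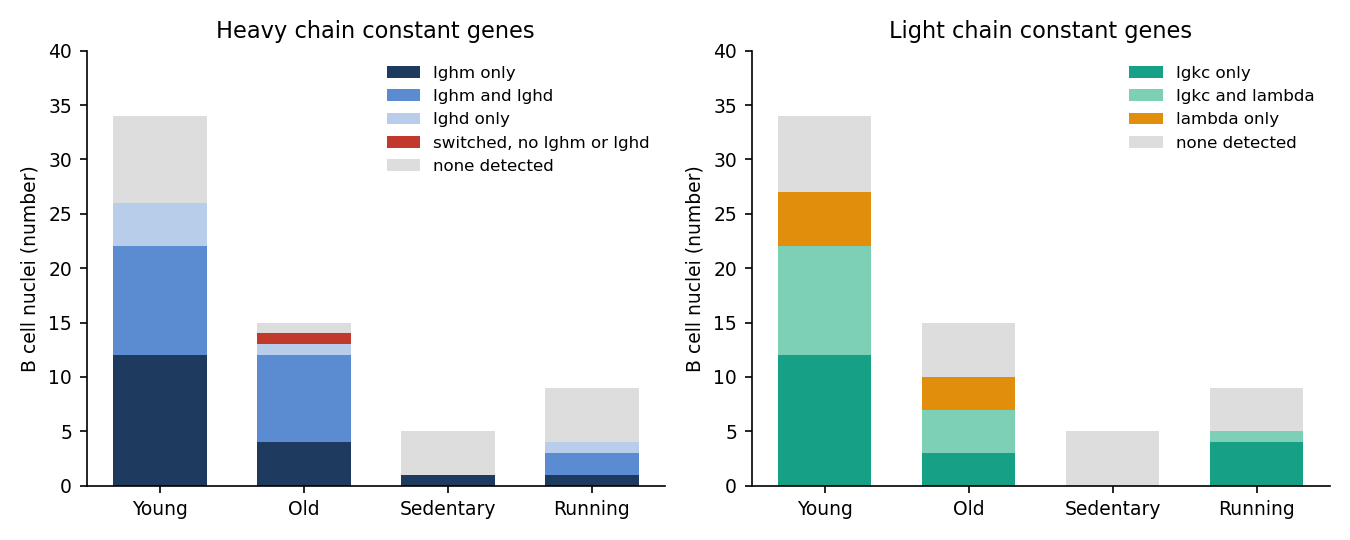
Stacked bars count the B cell nuclei of each 10x library by the heavy chain constant genes (left) and light chain constant genes (right) detected with at least 1 UMI. Ighm and Ighd make up all but 1 of the nuclei with a heavy chain, and both kappa and lambda appear in 10 Young, 4 Old and 1 Running nuclei.

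Genes that mark B cell subsets were sparse. Fcer2a and Cr2, which are highest in follicular and marginal zone cells, were found in 16 and 10 members. Cd5, a marker of B-1a cells, was at 0 in all 63. Of age-associated B cell markers Itgax was at 0, Tbx21 was found in 1 member and Itgam in 3, while Zeb2, which 394 of 458 macrophage nuclei also had, was found in 36. A count of 0 of 63 allows a share of nuclei with a UMI of up to 4.76%. The cycling gene Mki67 was also at 0.

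Plasma cell genes were nearly absent from members. Prdm1, Sdc1, Derl3 and Tnfrsf17 were at 0 and Jchain had 1 UMI, and the 8 listed genes gave 10 UMIs in all. Of the 7 stromal genes of lymph nodes, among them Ccl21a, Cxcl13 and Glycam1, members held 0 UMIs. Ccl21a was found in 1.33% of other nuclei, a share that 63 nuclei are too few to tell from 0. Nuclei with at least 3 UMIs over 2 plasma cell genes numbered 17 in Old, 4 in Sedentary, 2 in Running and 1 in Young. The widened set of 45 Old B cell nuclei held 598 UMIs of Igha in 2 nuclei and 305 of Jchain in 3. The 70 Young ones held 0 of both. The widened set thus takes in, through these few nuclei, RNA of antibody-secreting cells that the 63 members do not.

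RNA of other cell types was read from marker lists, which cover only part of such RNA. The 8 myofibre genes gave 5.66% of the UMIs of other nuclei. In members they gave 0.390% of UMIs in Old, 1.26% in Young, 0.672% in Sedentary and 5.30% in Running, with single nuclei between 0% and 9.71%. The 8 macrophage genes gave 3, 11, 3 and 96 UMIs in Old, Young, Sedentary and Running, with Csf1r at 0 by the rule. The 9 T cell genes gave 1, 10, 3 and 2, with Cd3d, Cd3g and Bcl11b at 0. Mitochondrial UMIs had a median of 1.8% in Old members and 0.328% in Young ones.

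Old and Young members were compared by their summed counts, 22024 UMIs in Old and 82223 in Young after ribosomal and mitochondrial genes were left out. Of 611 genes with at least 30 UMIs in both together, 63 were more than 2-fold higher in Old (10.3%) and 105 more than 2-fold lower (17.2%), with a median log2 ratio of 0.09. In the widened set of 141 nuclei, 7.16% of 2292 genes were past that fold on the higher side and 8.2% on the lower. Ratios are of CPM, counts scaled to a common total, with a pseudocount of 0.5 counts, and their intervals are exact for counting error between these 2 libraries. The MHC class II genes are described first.

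The 3 chains H2-Aa, H2-Ab1 and H2-Eb1 together gave 62 UMIs in the 15 Old members and 51 in the 34 Young members, or 27.2 and 6.13 per 10000 UMIs, a ratio of 4.44. They were detected in 13 of 15 Old and 19 of 34 Young members. Per nucleus the values ran from 0 to 59.3 per 10000 in Old with a median of 19.9, and from 0 to 36.3 in Young with a median of 2.80. The nuclei of the 2 libraries overlapped. With the highest nucleus of each library left out the ratio was 4.33.

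By gene, the log2 ratio of Old to Young was 2.09 for H2-Aa (1.19 to 3.01), with 24 and 21 UMIs, and 2.10 for H2-Eb1 (1.17 to 3.04), with 23 and 20 UMIs. Cd74 had 46 and 72 UMIs and a ratio of 1.26 (0.69 to 1.81). In the widened set the ratios were 1.98 for H2-Aa, 2.07 for H2-Ab1, 1.67 for H2-Eb1 and 1.11 for Cd74. In macrophage nuclei of the same libraries they were 0.03 for H2-Aa, 0.02 for H2-Ab1, −0.38 for H2-Eb1 and −0.24 for Cd74. The macrophage ratios of these 4 genes were thus lower than those of the B cell nuclei, a difference that was not tested.

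Other measures moved with the library. The median member held 1506 UMIs in Old and 2039 in Young, and the log2 ratios of the myofibre genes Ttn, Neb and Myh4 were −2.07, −1.57 and −2.52. Without the 4 Young members that held at least 50 Ttn UMIs, an alternative chosen after the data were seen, the 3 chains gave 5.96 UMIs per 10000 in Young and the ratio was 4.56. H2-Aa was found in 5.55% of all nuclei that were no members in Old and 2.41% in Young, where it gave 0.00496% and 0.00254% of UMIs, against 0.105% and 0.0252% in members. When the nuclei with the 6% highest doublet scores were left out, which removed 7 Young members and no Old one, the ratios were 2.10 for H2-Aa, 1.88 for H2-Ab1, 1.71 for H2-Eb1 and 0.59 for Cd74. Running members held 4.80 and Sedentary members 10.7 UMIs of the 3 chains per 10000.

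**Figure D5:**
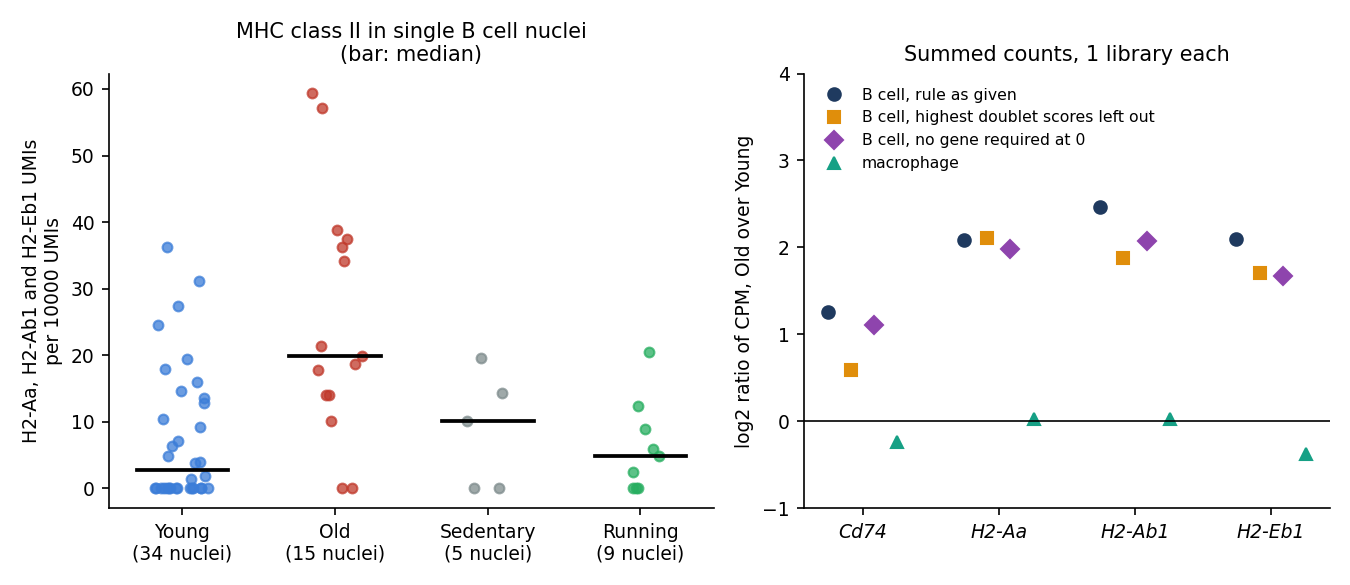
On the left, each point is 1 B cell nucleus and its UMIs of H2-Aa, H2-Ab1 and H2-Eb1 per 10000 UMIs in the 4 10x libraries, with bars at the medians of 19.9 in Old and 2.80 in Young. On the right, the log2 ratio of CPM between Old and Young is plotted for Cd74 and the 3 chains, in B cell nuclei under 3 settings and in macrophage nuclei. The B cell ratios lie above 0 in each setting and the macrophage ratios between −0.38 and 0.03.

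Antibody genes differed in direction by chain and by setting. Ighm had 57 UMIs in Old and 77 in Young, a log2 ratio of 1.47 (0.95 to 1.98), and Ighd 18 and 25, a ratio of 1.44 (0.47 to 2.36). Igkc had 10 and 82 UMIs, a ratio of −1.07 (−2.25 to −0.18). In the widened set the Igkc ratio was 2.63, the opposite sign, that of Ighm was 3.18 and that of Ighd was 0.15. The widened Old set also held the few nuclei with Igha and Jchain, whose part in these ratios was not tested. Without the highest doublet scores Ighm was at 0.85 and Igkc at −1.74.

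Lineage transcription factors lay on both sides of 0. Those with at least 30 UMIs ran from −0.81 for Mef2c (−1.44 to −0.26) to 1.03 for Pou2f2 (−0.04 to 2.0). The intervals of Ebf1 (−0.27, −0.57 to 0.01), Bach2 (−0.13, −0.56 to 0.27), Aff3 (−0.17, −0.62 to 0.23), Bcl11a (−0.09, −0.75 to 0.48) and Foxp1 (0.09, −0.24 to 0.41) included 0 and left out a 2-fold difference either way. This depended on the nuclei taken: in the widened set Ebf1 was at −0.71, Bach2 at −1.13 and Bcl11a at −1.30, and without the highest doublet scores Bach2 was at −0.85. Among signalling genes, Syk (1.07, 0.44 to 1.67) and Prkcb (0.88, 0.37 to 1.36) were higher in Old and Lyn (−0.83, −1.59 to −0.19) and Pik3ap1 (−1.98, −4.06 to −0.72) were lower, while in the widened set Syk was at 0.12 and Prkcb at −0.24.

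With the rule genes left out, the 5 highest ratios were those of Clec2g, Nr3c2, Gnas, H2-Eb1 and H2-Aa. The rule gene Cd79b had 23 UMIs in Old and 19 in Young, a ratio of 2.17. Clec2g, a C-type lectin, had 19 UMIs in 9 Old members and 11 in 5 Young members. Nr3c2 had 17 and 13 UMIs, of which 8 of the Young ones came from nuclei with at least 50 Ttn UMIs. At the other end, Gulp1, Chl1, Ptprd and Acss3 had 0 UMIs in Old and 43, 39, 35 and 34 in Young, and Ghr had 3 and 265. A single Young nucleus held 202 of the Ghr UMIs, and a single nucleus held 38 of the 43 for Gulp1.

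Running and Sedentary members could be compared only coarsely, with 9 nuclei and 30983 UMIs against 5 nuclei and 6490 UMIs. Of 99 genes with at least 30 UMIs, 60 were more than 2-fold higher in Running (60.6%) and 9 more than 2-fold lower (9.09%). The 5 with the highest ratio, Pygm, Gm28376, Nexn, Zbtb16 and Slc8a1, had 0 UMIs in Sedentary, and between 28 and 35 of their 30 to 39 UMIs each in Running came from the 3 nuclei with at least 50 Ttn UMIs. Pygm is the glycogen phosphorylase of muscle fibres.

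The 5 genes with the lowest ratio, Gm10718, Gm10719, Gm10800, Gm10801 and Gm21738, carry predicted gene names. Gm10800 gave 5.05% of the UMIs of Sedentary members, with 204 of its 331 UMIs in a single nucleus, and 0.444% of the UMIs of the other Sedentary nuclei, 51.3% of which had it. In Running it was found in 12.9% of other nuclei. Few B cell genes reached 30 UMIs. Ebf1 had 55 UMIs in Running and 5 in Sedentary (log2 ratio 1.08, −0.10 to 2.88), Foxp1 had 46 and 8 (0.20, −0.83 to 1.56) and Aff3 had 20 and 13 (−1.65, −2.71 to −0.50). The median ratio over the 99 genes was 1.48, above that of each of these 3 genes.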

How the data were processed

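Single-nucleus libraries of gastrocnemius from Old, Young, Running and Sedentary mice were analysed, 1 10x library and 1 library of a second droplet system per group. For each library the authors deposited a matrix of unnormalized UMI counts, from reads aligned to mm10; 114 ribosomal protein and mitochondrial genes did not enter the gene comparisons. Some genes of the rules and lists are not reported here by name. The submitters' processing notes name Cell Ranger 6.1.2 and Seurat 4.1.1, and whether intronic reads were counted is not given in the sources used here. A nucleus was retained when it had over 200 but below 6000 detected genes and its mitochondrial share was below 6%, which left 47059 10x nuclei.

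The members, markers and gene lists were chosen with earlier results of these data known. Summed counts were tested with edgeR 4.0.16 (R 4.3.3; TMM, quasi-likelihood, filter on low counts, library as a block, Benjamini-Hochberg over all genes tested, threshold 0.05). The planned comparisons under the rule as given had 2 libraries where 3 were needed and were not tested. Named genes were list members and, per tested comparison, the 10 largest differences in each direction among called genes whose average log2 CPM reached 6 and that moved 1 way in every library; between groups, the 5 highest and 5 lowest ratios among genes with at least 30 UMIs, rule genes left out. Intervals of shares are exact binomial (scipy 1.17.1) and cover counting error only. Doublets were scored with Scrublet (scanpy 1.11.5) and nuclei with the 6% highest scores were left out as an alternative. Other alternatives were other UMI minimums, other genes required at 0, thinning, RLE factors, DESeq2 1.42.0, no filter, no block and leaving out each library. On simulated counts for 844 genes of the T cell comparison, 92% of genes changed 4-fold and 96% of those changed 8-fold were recovered. The changed genes were drawn only from those above the median abundance. All genes had the same spread, and simulated libraries differed only in depth. Recovery of less abundant genes, or with the spread of real libraries, was not measured. Same-library classes pair by construction. Whether libraries hold separate animals is not given in the sources used here.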

Additional observations from a re-analysis of the deposited data

Results flagged for a closer look

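The rule was also applied to the second library set, which the comparisons do not use. It found 7 of 4772 nuclei in the Old library (0.147%, exact interval 0.0590 to 0.302), and 0 in the Young, Running and Sedentary libraries. The Old share was above the 0.0629% that a count of 0 allows, but the lower end of its interval was not. Only 2 of the 7 had at least 2 of the 12 markers outside the rule, and Cd79a and Cd79b were at 0 in all 7. In that library Bank1 was found in 8.03% and Pax5 in 3.86% of all nuclei. The part of this background in the 7 nuclei was not tested.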

How the results depend on the processing

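The share ratios of Old to Young and of Running to Sedentary stayed within their intervals in all 9 alternatives each, and so did the switched share in 5. Single shares moved more. With no gene required at 0 they were 0.385% in Old, 0.593% in Young and 0.113% in Sedentary, and with Pecam1 alone not required 0.291% in Old and 0.560% in Young. At 5 UMIs Running had 0.0308%, and at 2 UMIs Sedentary had 0.161%. Members thinned to 500 UMIs held Igkc alone in 63.6% of those with a light chain, and Ighm or Ighd in 49.2%. Against T cell nuclei the count of called genes was 253 with no filter on low counts and 17 to 206 with 1 library left out. Against macrophage nuclei it was 583 with no filter, 115 to 515 with 1 library left out and 808 with Pax5 in place of Bank1. Both classes come from the same libraries, and without the library as a block the counts were 19 against T cell and 267 against macrophage nuclei. Leaving out a library and the filter change the number of genes tested; otherwise the cause was not tested. Of the named and listed genes called, 11 of 23 against T cell and 32 of 46 against macrophage nuclei kept the call in every alternative that tested them, and 0 reversed. The comparison at 5 UMIs was not run, since fewer than 3 libraries had 10 nuclei of both classes. With 5 to 34 members a library, shares near 0.05% rest on few nuclei.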
